A study of Mus musculus with 16 samples.

Results

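The genes described here encode the ligands and receptors of the classical axon guidance systems. They were taken as the protein-coding genes whose symbols fall in the Robo, Slit, class 3 to 7 semaphorin, plexin, neuropilin, Dcc, Unc5, netrin, netrin-G, Eph and ephrin families, without use of any measured value. This gave 72 of the 46320 genes in the table, which holds 22173 protein-coding genes. Of these 72 genes, 69 had enough counts to be tested, among 19964 genes tested in all, and they comprise 36 ligands and 33 receptors. Robo4, an endothelial member of the Robo family, reached at most 2.19 CPM (read counts scaled to a common library size) in any library, Ntn5 0.472 CPM and Unc5cl 0.332 CPM, and these 3 genes were not tested. Unc5cl carries an Unc5-like symbol but is not among the known netrin receptors.

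Guidance cues steer the growth cone at the tip of a growing axon by attraction or repulsion. Slits bind Robo receptors, netrins bind Dcc and Unc5 receptors, semaphorins bind plexins with or without a neuropilin as co-receptor, and ephrins bind Eph receptors on contact between cells. In the spinal cord and limb these systems sort motor axons towards their muscles, Epha4 and the neuropilins being the best known motor axon receptors, and the mRNAs of some guidance receptors are carried into axons and translated there.

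RNA was measured in motoneurons enriched with a p75NTR antibody from lumbar spinal cords of mouse embryos at embryonic day 13 and grown in microfluidic chambers, where axons enter a compartment separate from the cell bodies. CNTF (5 ng/ml) was present on both sides and BDNF (20 ng/ml) on the axonal side alone. The 4 groups, with 4 libraries each, are the somatodendritic and the axonal compartment of Hnrnpr-/- motoneurons, a constitutive knockout made by deleting the first exons of the gene for the RNA-binding protein hnRNP R, and of +/+ motoneurons. The labels do not say which libraries share a litter or culture, so that p-values measure the spread between libraries. In the main model this spread was estimated per gene over all 16 libraries. Axonal and somatodendritic spread therefore both entered each comparison. Axonal RNA was amplified with the full reaction volume of the cDNA kit and somatodendritic RNA with a part of it and fewer PCR cycles. Axonal RNA also went without the quality check made on somatodendritic RNA. Compartment and library preparation thus cannot be told apart.

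Hnrnpr itself lay between 120 and 422 CPM in the 8 +/+ libraries and between 0.545 and 1.16 CPM in the 8 Hnrnpr-/- libraries, as the labels state. Library totals ranged from 22024923 to 34864151 counts, of which the 72 guidance genes took 0.397 to 0.575% in somatodendritic and 0.236 to 0.386% in axonal libraries. Markers of other cells were read in each compartment. The 9 motoneuron markers summed to 21.7 to 39.2 CPM in +/+ cell bodies, where Mnx1 was at 0 and Chat averaged 0.899 CPM, against 1251 to 1462 CPM for 8 interneuron markers. In +/+ axons the interneuron markers summed to 36.5 to 302 CPM, 9 markers of astrocytes or radial glia to 2861 to 6308 CPM (1533 to 2355 CPM in cell bodies) and 6 markers of pericytes or smooth muscle to 1138 to 10844 CPM (21.0 to 401 CPM in cell bodies). Acta2 and Tagln carried most of the last sum, averaging 4058 and 521 CPM in +/+ axons and 113 and 12.6 CPM in cell bodies, whereas Kcnj8 averaged 0.625 and 1.19 CPM and Abcc9 0.337 and 1.94 CPM. Of 5 nuclear RNAs, Malat1 averaged 1085 CPM in +/+ axons and 226 CPM in cell bodies, Neat1 30.4 and 7.01 CPM and Kcnq1ot1 44.3 and 20.7 CPM. Meg3 averaged 154 and 491 CPM and Miat 35.9 and 49.0 CPM. The part of nuclear RNA and of these other cells in the results below was not tested. In bulk RNA a change in the share of a cell type cannot be told apart from a change in RNA per cell.

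Guidance transcripts were detected in the axonal libraries over a wide range of levels. On the scale of CPM per kilobase of exon, which allows genes to be compared, Plxnb2, the plexin that binds class 4 semaphorins, stood first in +/+ axons at 48.0 ± 19.1 (SD, n = 4). Ntn1, the secreted netrin, followed at 31.4 ± 14.9, the semaphorin receptor Plxna1 at 24.8 ± 8.32, the co-receptor Nrp1 at 22.9 ± 16.3 and the ephrin Efnb1 at 22.2 ± 8.53. Each of these 5 overlapped in spread with the next. In +/+ cell bodies Plxna1 (40.0 ± 5.87 CPM per kilobase), Ntn1 (33.5 ± 14.2), Plxnb2 (32.2 ± 7.30), the transmembrane ephrin Efnb3 (28.1 ± 8.29) and Sema6b (27.6 ± 3.65) came first, and each again overlapped with the next. Plxna1, Ntn1 and Plxnb2 thus held the first 3 places in both compartments. At the other end, Sema3g averaged 0.0329 CPM per kilobase in +/+ axons and Epha6 0.116.

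**Figure D1:**
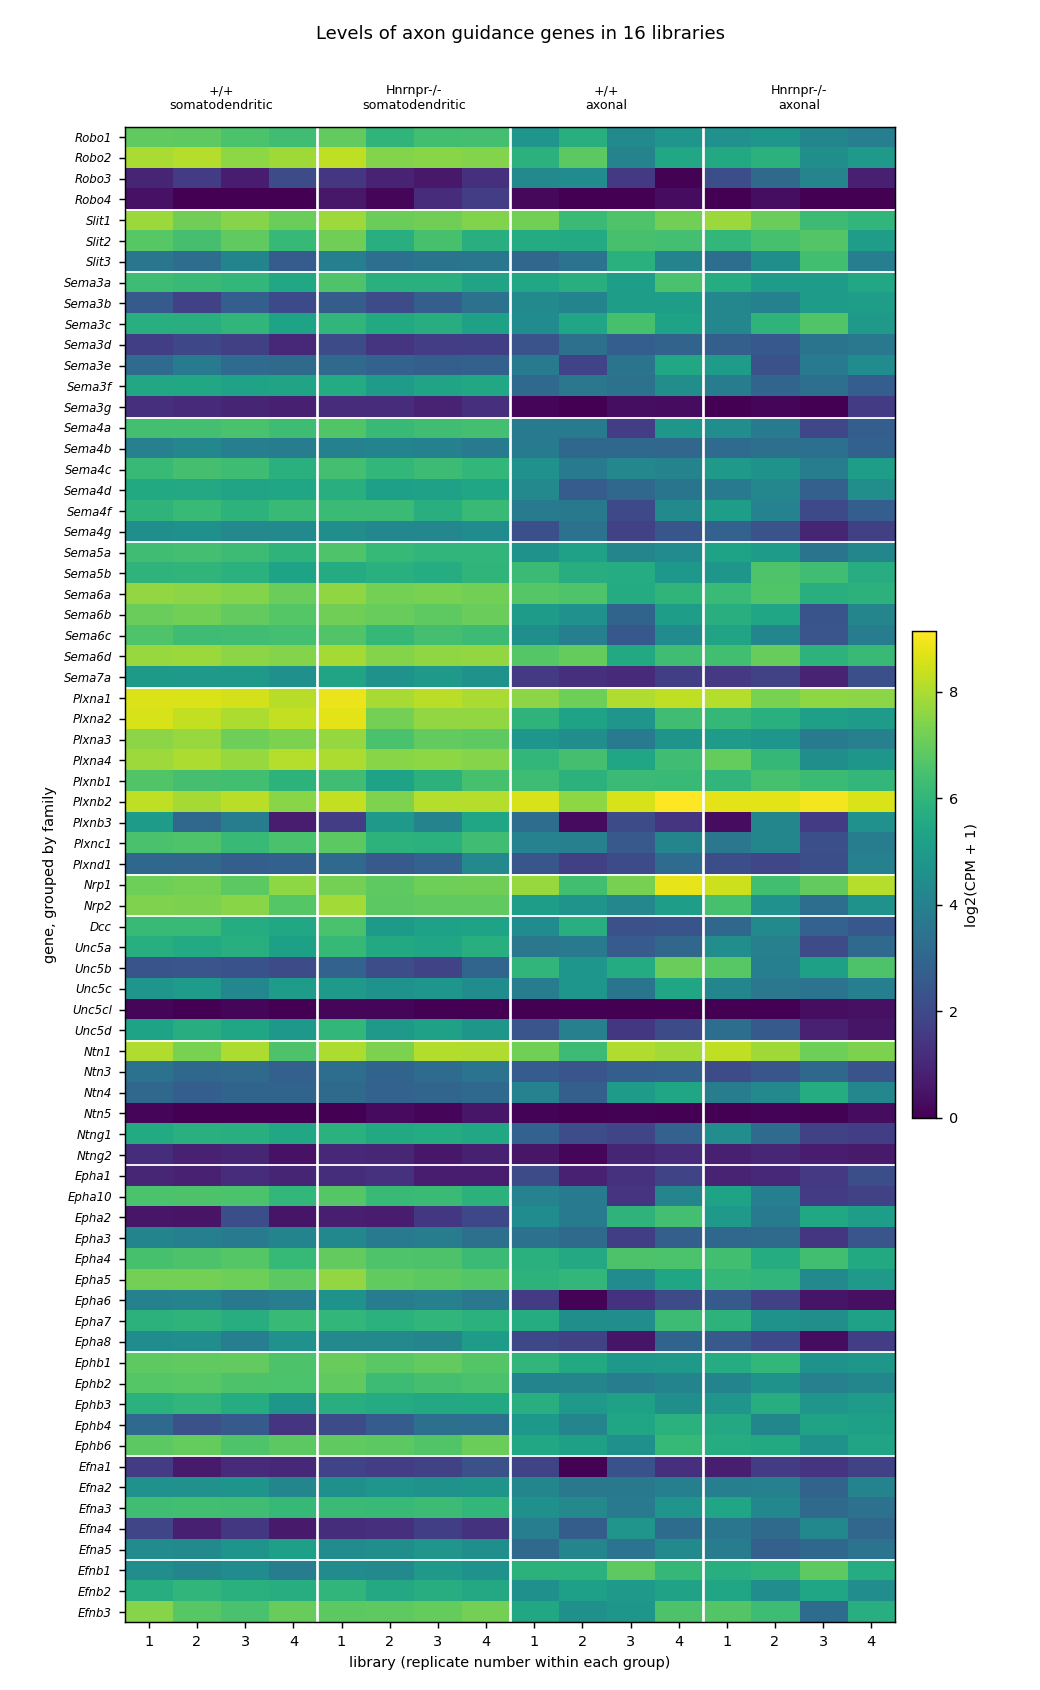
Levels of all 72 genes (rows, grouped by family) in the 16 libraries (columns, by group and replicate number), as log2(CPM + 1). Most rows are darker in the 8 axonal libraries than in the 8 somatodendritic ones, while Epha2, Unc5b and Ephb4 are brighter there, and Ntn5, Robo4 and Unc5cl are near 0 throughout.

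The first comparison asked which guidance transcripts the axonal compartment of +/+ motoneurons contained relative to the cell bodies. Most were lower in axons. With edgeR's quasi-likelihood test and Benjamini-Hochberg adjustment over all genes, 37 of the 69 (53.6%) were lower at an adjusted p under 0.05, where 27.4% of all genes tested were, and 8 (11.6%) were higher, where 30.1% of all genes were. The median log2 fold change of axons against cell bodies was −1.14 over the 69 genes, with 54 of them below 0, and 0.07 over all genes tested. Scaling by library totals moved the median of all genes to 0.22 and that of the guidance genes to −0.97, with 9 higher and 33 lower. The ligands and receptors gave like counts, with 5 ligands higher and 19 lower of 36, and 3 receptors higher and 18 lower of 33.

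The 8 genes higher in axons came from 7 families and averaged between 1.23 and 18.2 CPM in +/+ cell bodies. Epha2, an Eph receptor for the ephrins anchored by GPI, showed the largest difference (GRCm39 chromosome 4, 141028532 to 141056695). Its level in the +/+ somatodendritic libraries 1 to 4 was 0.483, 0.405, 3.60 and 0.422 CPM, against 20.5, 12.2, 60.8 and 84.8 CPM in the axonal ones. Every axonal library lay above every somatodendritic one, with a log2 fold change of 5.18 ± 0.88 (SE, adjusted p = 0.000287).

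Unc5b, a netrin receptor that mediates repulsion (chromosome 10, 60598373 to 60667360), was at 4.22, 4.37, 3.89 and 3.38 CPM in +/+ cell bodies and at 64.1, 26.6, 48.0 and 132 CPM in axons. The groups were far apart, at a log2 fold change of 4.09 ± 0.62 (adjusted p = 0.000132). In the same axonal libraries the summed level of 9 fibroblast or meningeal markers was 830, 152, 520 and 2135 CPM, the same order as that of Unc5b, against 63.6 to 426 CPM in cell bodies. Hnrnpr-/- libraries did not share this order. There the marker sums were 104, 141, 1183 and 1267 CPM in cell bodies, with Unc5b at 6.26, 3.46, 2.68 and 6.86 CPM. In Hnrnpr-/- axons they were 840, 203, 704 and 1938 CPM, with Unc5b at 107, 14.2, 35.2 and 96.0 CPM. The part of such cells in Unc5b was not tested. In axons it became the 7th most abundant of the 69 genes per kilobase, from place 63 in cell bodies. Its other family members did not share the direction, as described below.

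Efna4, an ephrin of the GPI-anchored class (chromosome 3, 89240700 to 89245335), measured 2.72, 0.765, 1.82 and 0.563 CPM in cell bodies and 14.0, 5.46, 26.1 and 8.44 CPM in axons, a log2 fold change of 3.18 ± 0.56 (adjusted p = 0.000343). Ephb4, best known as a receptor of venous endothelium (chromosome 5, 137348371 to 137372784), measured 7.66, 3.87, 5.05 and 1.69 CPM against 27.9, 16.7, 40.6 and 55.6 CPM, at 2.94 ± 0.49 (adjusted p = 0.000260). Neither gene had an axonal library within the range of the cell bodies. The 6 endothelial markers summed to 25.4 to 62.0 CPM in +/+ axons and to 4.18 to 12.9 CPM in cell bodies. Kdr averaged 37.0 CPM in axons and 4.25 CPM in cell bodies and Emcn 2.18 and 0.663 CPM, whereas Pecam1 averaged 0.378 and 1.41 CPM, Tek 0.0255 and 0.601 CPM, and Cdh5 and Cldn5 were at 0 CPM in all 4 axonal libraries. The part of such cells in both genes was not tested.

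Sema3b, a secreted semaphorin (chromosome 9, 107474873 to 107486440), was at 5.01, 2.43, 5.71 and 3.19 CPM in cell bodies and at 19.7, 16.4, 33.7 and 33.1 CPM in axons, a log2 fold change of 2.65 ± 0.40 (adjusted p = 0.000128). Efnb1, a transmembrane ephrin (chromosome X, 98179667 to 98192628), was at 21.3, 17.4, 20.7 and 13.4 CPM against 57.7, 56.8, 117 and 67.1 CPM, at 2.04 ± 0.31 (adjusted p = 0.000127). For both genes the axonal libraries were the higher ones without overlap. Axonal library 3, with the highest Efnb1 level, also had the highest sum of pericyte or smooth muscle markers (10844 CPM) and the lowest sum of interneuron markers (36.5 CPM) of the +/+ axonal libraries.

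Ntn4, a netrin of basement membranes (chromosome 10, 93476911 to 93581834), measured 7.24, 5.72, 6.79 and 6.71 CPM in cell bodies and 15.4, 5.76, 31.4 and 41.4 CPM in axons. Axonal library 2 lay within the range of the cell bodies, and the log2 fold change was 1.83 ± 0.49 (adjusted p = 0.00582). Sema3d, a secreted semaphorin named here after its values were seen, was the lowest of the 8 in axons, at 6.40 CPM on average, with a log2 fold change of 1.57 ± 0.38 (adjusted p = 0.00289). When the axonal libraries numbered 3 of both genotypes were left out, a step chosen after seeing the data, 9 guidance genes were higher and 38 lower in +/+ axons, and Efnb1 was at a log2 fold change of 1.71, Efna4 at 2.62 and Ntn4 at 1.62.

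**Figure D2:**
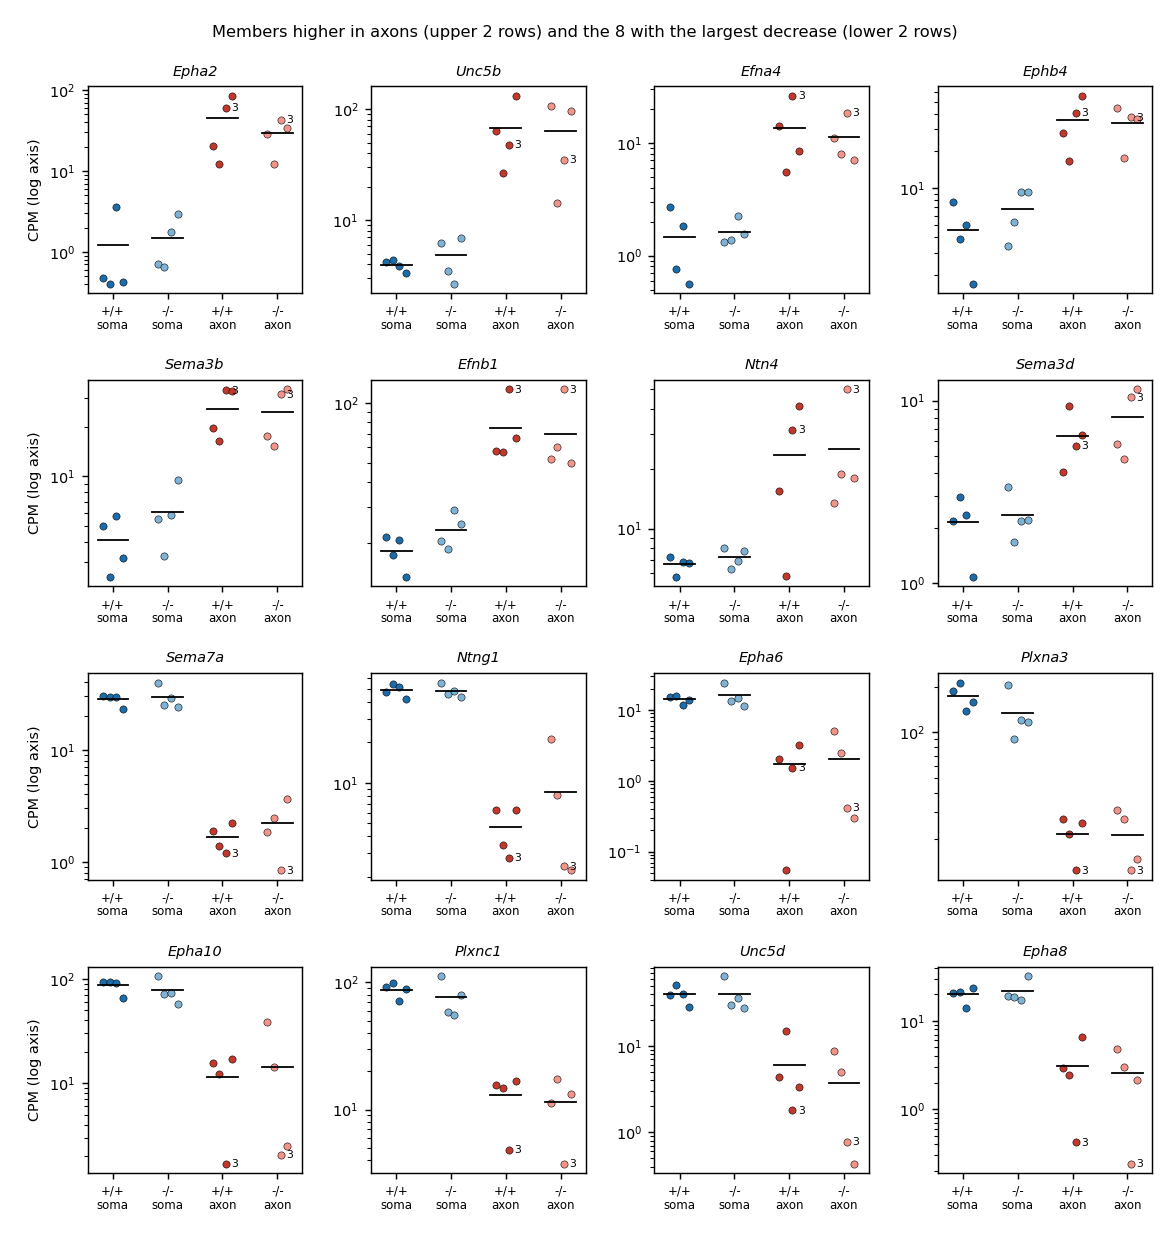
CPM in each library (log axis) for the 8 genes higher in +/+ axons, in the upper 2 rows, and the 8 with the largest decrease, in the lower 2 rows; points are libraries, horizontal lines group means, and 3 marks the axonal libraries with that number. The +/+ axonal points lie above the somatodendritic ones in the upper rows, except for 1 library of Ntn4, and below them in all lower panels.

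Promoters are shown for the genes at both ends of the scale, so that their base composition can be compared. Each line gives the 250 bases before the transcription start, on the strand of the gene, with the GC box GGGCGG or its reverse complement in capitals, from RefSeq sequences of GRCm38.p6. Epha2 (chr4:141300971-141301220) and Unc5b (chr10:60831582-60831831, minus strand) had the largest increases, Sema7a (chr9:57939862-57940111) and Ntng1 (chr3:110143473-110143722, minus strand) the largest decreases.
Epha2: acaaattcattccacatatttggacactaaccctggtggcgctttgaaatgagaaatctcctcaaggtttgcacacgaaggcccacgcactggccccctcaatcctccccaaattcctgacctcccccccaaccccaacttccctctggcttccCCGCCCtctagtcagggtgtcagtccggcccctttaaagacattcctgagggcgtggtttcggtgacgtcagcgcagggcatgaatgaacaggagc
Unc5b: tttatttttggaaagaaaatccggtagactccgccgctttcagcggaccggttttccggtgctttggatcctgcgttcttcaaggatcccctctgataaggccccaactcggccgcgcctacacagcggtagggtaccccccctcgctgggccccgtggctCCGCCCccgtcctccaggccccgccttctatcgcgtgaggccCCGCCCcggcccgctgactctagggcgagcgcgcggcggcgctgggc
Sema7a: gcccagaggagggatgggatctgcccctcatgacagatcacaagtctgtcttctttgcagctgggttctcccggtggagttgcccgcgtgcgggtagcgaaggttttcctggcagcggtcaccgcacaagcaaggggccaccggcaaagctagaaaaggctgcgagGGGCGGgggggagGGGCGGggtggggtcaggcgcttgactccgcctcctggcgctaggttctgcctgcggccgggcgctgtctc
Ntng1: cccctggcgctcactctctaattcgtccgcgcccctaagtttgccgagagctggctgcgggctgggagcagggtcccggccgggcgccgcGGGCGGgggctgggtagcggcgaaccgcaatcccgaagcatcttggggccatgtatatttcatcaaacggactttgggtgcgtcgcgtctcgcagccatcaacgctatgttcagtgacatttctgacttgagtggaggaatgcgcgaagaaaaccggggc
The Epha2 promoter held 9 CG dinucleotides in this window and 1 GC box, against 27 and 2 for Unc5b, 17 and 2 for Sema7a, and 25 and 1 for Ntng1. Promoters were found for 62 of the 72 genes, and 72.6% of them held the GC box on either strand, where 32.9% of the 27025 genes with a listed promoter did. The guidance genes are all protein-coding, whereas those 27025 genes were not limited to protein-coding ones. This holds for each comparison with all genes in this paragraph. The share was 57.1% for 7 genes higher in +/+ axons, 77.4% for 31 lower ones and 76.2% for 21 that were not called, a difference that was not tested. The TATA sequence TATAAA occurred, on either strand, in 3.23% of the guidance genes and in 13% of all genes. The median count of CG dinucleotides was 16 in guidance genes and 6 in all genes. These are matches of letters and no measure of binding.

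Among the semaphorins, the membrane-bound classes were lower in axons with few exceptions. All 6 genes of class 4 and 6 of 7 genes of classes 5 to 7 were lower in +/+ axons, and none was higher. Sema7a, the GPI-anchored semaphorin (chromosome 9, 57846879 to 57870148), showed the largest decrease of all 69 genes. It was at 30.3, 29.3, 29.8 and 23.0 CPM in cell bodies and at 1.91, 1.38, 1.20 and 2.20 CPM in axons, a log2 fold change of −4.07 ± 0.37 (adjusted p = 1.18e-05). The 4 libraries of each compartment were close together, and the compartments were far apart.

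Sema4a (83.7, 84.4, 89.4 and 77.9 CPM in cell bodies, 12.5, 12.5, 2.14 and 27.5 CPM in axons) was lower by a log2 fold change of −2.62 ± 0.61 (adjusted p = 0.00234). Sema6b (131, 145, 122 and 105 CPM against 31.3, 23.5, 6.76 and 32.6 CPM) stood at −2.42 ± 0.58 (adjusted p = 0.00271). In both genes axonal library 3 was the lowest. Sema4f and Sema6c stood at −2.46 each and Sema4c at −2.05. Sema5b, a transmembrane semaphorin, was the exception, at 59.9, 61.4, 55.7 and 38.2 CPM in cell bodies and 73.8, 50.8, 49.6 and 28.1 CPM in axons (log2 fold change −0.09 ± 0.33, adjusted p = 0.833).

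Of 7 secreted class 3 semaphorins, 2 were higher, 1 was lower and 4 did not pass the threshold. Sema3a, the prototype repellent of this class, was at 77.8, 72.8, 65.8 and 42.5 CPM in cell bodies and at 44.1, 53.9, 33.3 and 89.3 CPM in axons (−0.23 ± 0.32, adjusted p = 0.551). Sema3c stood at −0.13 ± 0.47, and its sign changed with the scaling. The compartments overlapped widely for both. Sema3e, the ligand of Plxnd1, varied widely between axonal libraries, at 12.6, 2.60, 10.3 and 42.4 CPM, against 8.09, 12.5, 8.16 and 7.84 CPM in cell bodies (0.89 ± 0.65, adjusted p = 0.250). Sema3f was the one that was lower, at −1.68 ± 0.31 (adjusted p = 0.000516).

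Of 9 plexins, the main semaphorin receptors, the 4 A plexins and Plxnc1 were lower in +/+ axons and none was higher. Plxna3 (chromosome X, 73372644 to 73388295) was at 188, 213, 139 and 159 CPM in cell bodies and 26.8, 21.6, 12.4 and 25.2 CPM in axons, a log2 fold change of −3.02 ± 0.35 (adjusted p = 2.86e-05). Plxna4, a partner of the neuropilins, stood at −1.83 ± 0.43 (adjusted p = 0.00233) and Plxna1 at −0.69 ± 0.27 (adjusted p = 0.0388). The call of Plxna1 was lost in 12 of 27 alternative settings.

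Plxnb2 was at 310, 238, 291 and 181 CPM in cell bodies and at 381, 192, 385 and 562 CPM in axons, which overlapped (0.58 ± 0.28, adjusted p = 0.0871). Plxnb1 stood at −0.22 ± 0.23 (adjusted p = 0.427). Plxnb3 varied widely between libraries of 1 group, at 32.5, 7.20, 13.6 and 0.610 CPM in +/+ cell bodies and at 0.232, 17.3, 1.98 and 23.8 CPM in Hnrnpr-/- axons. In the same libraries the summed level of 9 markers of oligodendroglia or Schwann cells was 845, 355, 449 and 206 CPM and 313, 1682, 401 and 1599 CPM. Plxnb3 and these markers had the same highest and lowest libraries in +/+ cell bodies and the same 2 high libraries in Hnrnpr-/- axons, and the part of such cells in Plxnb3 was not tested. Plxnd1 was scarce, with at most 8.08 CPM in a +/+ library, and its groups overlapped.

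Of the neuropilins, co-receptors of secreted semaphorins, Nrp2 was lower in axons and Nrp1 did not pass the threshold. Nrp2, the co-receptor used by Sema3f, was at 163, 160, 183 and 106 CPM in cell bodies and at 33.9, 25.7, 18 and 32.7 CPM in axons, a log2 fold change of −2.47 ± 0.52 (adjusted p = 0.00121). Nrp1, the co-receptor of Sema3a, was at 137, 148, 112 and 193 CPM in cell bodies and at 211, 81.4, 153 and 448 CPM in axons. Its axonal libraries lay on both sides of the somatodendritic ones, at 0.60 ± 0.47 (adjusted p = 0.285), an estimate that was 0.06 without axonal replicate 4 and 0.87 without axonal replicate 2. The difference between these 2 genes was not tested. Nrp1 and Unc5b shared the order of the 4 +/+ axonal libraries, with replicate 4 the highest and replicate 2 the lowest, and so did the fibroblast or meningeal markers given beside Unc5b. In Hnrnpr-/- axons Nrp1 was at 349, 81.1, 121 and 279 CPM. There replicate 1 was the highest for Nrp1 and Unc5b, and replicate 4 for these markers.

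Of the 3 Robo genes tested, Robo1 and Robo2 were lower in axons and Robo3 did not pass the threshold, nor did the Slits. Robo1 (chromosome 16, 71824406 to 72844379) was at 120, 117, 91.6 and 80.7 CPM in cell bodies and at 27.1, 52.9, 19.2 and 26.6 CPM in axons, a log2 fold change of −1.70 ± 0.31 (adjusted p = 0.000432). Robo2, its close relative, stood at −2.05 ± 0.45 (adjusted p = 0.00165), and axonal library 3 was the lowest for both. Robo3, which lets commissural axons cross the midline and is named here after its values were seen, was at 0.905, 2.07, 0.663 and 3.29 CPM in cell bodies and at 18.9, 20.4, 1.92 and 0.0306 CPM in axons. The 2 high and the 2 low axonal libraries left it at 2.58 ± 1.16 (adjusted p = 0.0689).

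Slit1 was the most abundant Slit per kilobase, with 219, 142, 176 and 133 CPM in cell bodies and 144, 74.4, 96.8 and 145 CPM in axons (−0.54 ± 0.34, adjusted p = 0.186). Slit2 stood at −0.52 ± 0.37 (adjusted p = 0.249). Both Slits overlapped between compartments. Slit3, which shares exons with a non-coding gene on the same strand, was at 7.12, 10.1, 54.1 and 16.1 CPM in axons and at most at 16.2 CPM in cell bodies (1.08 ± 0.68, adjusted p = 0.184).

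Of the netrin receptors, Unc5b was higher in axons and Unc5a (−2.39 ± 0.45, adjusted p = 0.000547) and Unc5d (−2.70 ± 0.79, adjusted p = 0.00897) lower. Dcc, the receptor for attraction by netrins, was at 70.7, 70.8, 49.3 and 42.9 CPM in cell bodies and at 20.6, 53.4, 3.83 and 4.13 CPM in axons. One axonal library fell within the range of the cell bodies, and the log2 fold change was −1.51 ± 0.70 (adjusted p = 0.0786). It passed the threshold in 3 of 27 alternative settings, among them voom (−2.28, adjusted p = 0.00981) and the fit without +/+ axonal replicate 2 (−2.62, adjusted p = 0.00453). Unc5c, which repels axons from netrin, was at 26.4, 31.3, 18.3 and 31.5 CPM against 13.2, 26.7, 10.8 and 41.6 CPM (−0.22 ± 0.35, adjusted p = 0.606). Bmpr1b, a gene on the opposite strand of the Unc5c locus, had 69.5% as many counts as Unc5c. Since the kit does not mark strand, reads from any stretch that both genes cover cannot be told apart. The share of such reads was not measured. The same holds for Unc5a and Hk3, whose count was 11.4% of that of Unc5a.

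The ligand Ntn1 was as variable in cell bodies (262, 155, 257 and 94.6 CPM) as in axons (146, 76.2, 265 and 234 CPM), at a log2 fold change of −0.09 ± 0.39 (adjusted p = 0.853) whose sign turned when libraries were scaled by their totals. Ntng1, a GPI-anchored netrin-G of neurons (chromosome 3, 109687366 to 110057291), was the second largest decrease. It was at 47.3, 54.8, 52.0 and 42.2 CPM in cell bodies and at 6.27, 3.43, 2.76 and 6.30 CPM in axons, a log2 fold change of −3.39 ± 0.58 (adjusted p = 0.000302). Ntn3 (−0.53 ± 0.25, adjusted p = 0.0855) overlaps Tbc1d24 on the same strand, a gene with many more counts, and is uncertain for that reason.

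The Eph receptors other than Epha2 and Ephb4 were lower in axons or did not pass the threshold. Of 9 Epha genes 5 were lower and of 5 Ephb genes 3. Epha6 (chromosome 16, 59473424 to 60431196) was at 15.1, 15.9, 12 and 13.8 CPM in cell bodies and at 2.01, 0.0541, 1.53 and 3.24 CPM in axons, where library 2 held 2 counts (−3.06 ± 0.87, adjusted p = 0.00764). Epha10, which lacks kinase activity (chromosome 4, 124775408 to 124811594), was at 93.4, 93.9, 91.8 and 65.9 CPM against 15.5, 12.2, 1.69 and 16.9 CPM (−2.90 ± 0.79, adjusted p = 0.00627). Both were without overlap, and for Epha10 axonal library 3 was again the lowest.

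Ephb2 had the smallest error of the lower receptors, at −2.67 ± 0.19 (adjusted p = 2.50e-06). Ephb1 stood at −1.44 ± 0.30 (adjusted p = 0.00123), Ephb6, which lacks kinase activity, at −1.40 ± 0.27 (adjusted p = 0.000746) and Epha5 at −1.57 ± 0.40 (adjusted p = 0.00382). Epha4, the receptor by which limb motor axons choose the dorsal path, was at 87.6, 94.3, 105 and 69.3 CPM in cell bodies and at 55.0, 44.5, 95.5 and 93.3 CPM in axons. The compartments overlapped (−0.31 ± 0.27, adjusted p = 0.347), and Epha4 was the 8th gene per kilobase in +/+ axons.

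Among the ephrins, 3 of 5 A ephrins and 2 of 3 B ephrins were lower, next to the higher Efna4 and Efnb1. Efna3 was at 79.2, 82.0, 79.4 and 69.2 CPM in cell bodies and at 23.3, 18.9, 12.9 and 26.3 CPM in axons (−1.93 ± 0.40, adjusted p = 0.00101). Efna5, a repellent for axons that carry Epha4 and other A receptors, stood at −0.87 ± 0.30 (adjusted p = 0.0237), Efna2 at −0.70 ± 0.24 (adjusted p = 0.0219) and Efnb3, an ephrin of the spinal midline, at −1.42 ± 0.56 (adjusted p = 0.0406). These 3 overlapped between compartments, and leaving out 1 library or another setting lost the call of Efna2 in 6, of Efna5 in 5 and of Efnb3 in 9 of 27 settings.

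Hnrnpr-/- motoneurons were compared between compartments in the same way, on libraries of their own. In their axons 9 guidance genes (13%) were higher, where 27.5% of all genes were, and 38 (55.1%) were lower, where 26.8% of all genes were. The median log2 fold change was −1.05, and −0.003 over all genes. The 8 genes higher in +/+ axons were higher here as well, and 35 genes were lower in both genotypes. The share of all genes called alike in both genotypes is not given, so these counts have no background to be read against. Epha2 was at 0.700, 0.649, 1.76 and 2.92 CPM in Hnrnpr-/- cell bodies and at 28.9, 12.2, 43.2 and 33.5 CPM in axons (4.29 ± 0.85, adjusted p = 0.000885). Unc5b was at 6.26, 3.46, 2.68 and 6.86 CPM against 107, 14.2, 35.2 and 96.0 CPM (3.71 ± 0.61, adjusted p = 0.000269). Both again lay apart without overlap.

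At the lower end Sema7a was at 39.6, 24.9, 28.9 and 24 CPM in Hnrnpr-/- cell bodies and at 1.86, 2.48, 0.840 and 3.65 CPM in axons (−3.73 ± 0.37, adjusted p = 2.32e-05). Ntng1 was at 55.7, 45.8, 48.0 and 43.8 CPM against 21.3, 8.14, 2.40 and 2.22 CPM (−2.50 ± 0.56, adjusted p = 0.00197). Over the 69 genes, 65 had the same sign in both genotypes, with Pearson's r 0.97 and Spearman's rank correlation 0.949 across genes, which are not independent replicates. The median absolute difference between the 2 log2 fold changes was 0.30.

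A few genes passed the threshold in 1 genotype. Unc5c (−0.93 ± 0.35, adjusted p = 0.0354), Ntn3 (−0.80 ± 0.25, adjusted p = 0.0153) and Dcc (−2.39 ± 0.73, adjusted p = 0.0124) were lower in Hnrnpr-/- axons, Plxnb2 was higher there (0.77 ± 0.28, adjusted p = 0.0291), and Plxna1 and Efnb3 passed in +/+ axons. Dcc also passed in +/+ axons with voom, without +/+ axonal replicate 2 and with the replicate number as a block, although the numbers are not known to pair those libraries. Without Hnrnpr-/- somatodendritic replicate 1 it did not pass in Hnrnpr-/- axons (−1.86, adjusted p = 0.0520). Unc5c lost its call in 11 of 27 alternative settings. Plxnb2 did not pass without both axonal libraries numbered 3 (adjusted p = 0.0789), without Hnrnpr-/- somatodendritic replicate 2 (0.0775) or without Hnrnpr-/- axonal replicate 3 (0.0603). In +/+ axons it passed in 3 of 27 settings, which were library totals, protein-coding genes and the fit without axonal replicate 2. Plxna1 passed in Hnrnpr-/- axons in 3 settings, each without 1 library (Hnrnpr-/- somatodendritic replicate 4, Hnrnpr-/- axonal replicate 1 or +/+ axonal replicate 2). Efnb3 passed there with voom and without Hnrnpr-/- axonal replicate 1, and lost its call in +/+ axons in 9 settings. With the replicate number as a block, Epha4 was also lower in Hnrnpr-/- axons (−0.62, adjusted p = 0.0495, against −0.59 and adjusted p = 0.0776 without it). None of these 7 genes, and none of the 69, passed the test of the difference between genotypes, even at an unadjusted p under 0.05, at which 1.33% of all genes did in edgeR.

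**Figure D3:**
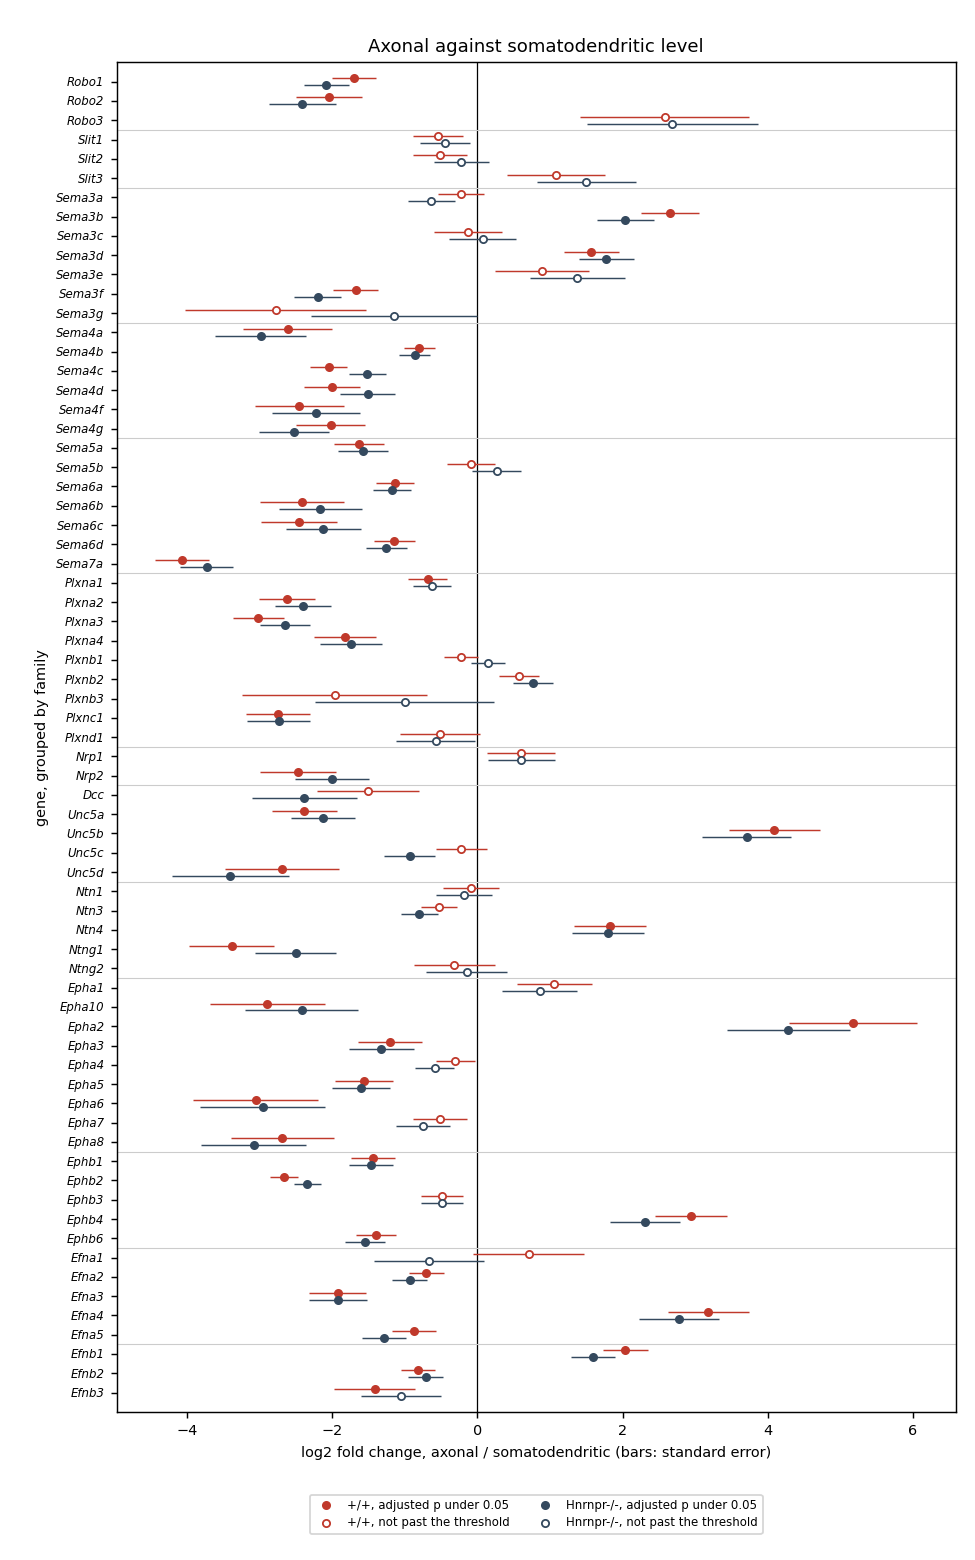
Log2 fold change of axonal against somatodendritic level for the 69 genes tested, in +/+ (red) and Hnrnpr-/- (dark) motoneurons, with standard errors as bars; filled points have an adjusted p under 0.05. Filled points lie mostly left of 0, 37 in +/+ and 38 in Hnrnpr-/-, and the 8 genes on the right in both genotypes range from 1.57 for Sema3d to 5.18 for Epha2 in +/+.

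The other genes of the guidance pathways were counted beside them. Of 33 further receptors, ligands and adhesion molecules, such as Neo1, L1cam and Ret, 2 were higher and 23 lower in +/+ axons, and 2 and 24 in Hnrnpr-/- axons. Of 50 signalling effectors, such as collapsin response mediators and Ena/VASP proteins, 8 were higher and 26 lower in +/+ axons, and 6 and 26 in Hnrnpr-/- axons. Of all genes tested, 30.1% were higher and 27.4% lower in +/+ axons, and 27.5% and 26.8% in Hnrnpr-/- axons. The median log2 fold change in +/+ was −1.78 for the first list and −0.55 for the second. In the same comparison 6 of 8 interneuron markers and 4 of 7 motoneuron markers tested were lower, whereas 5 of 9 markers of astrocytes or radial glia, 3 of 9 of fibroblasts or meninges and 3 of 6 of pericytes or smooth muscle were higher and none of these lower. In Hnrnpr-/- axons 5 of 8 interneuron and 4 of 7 motoneuron markers were lower, and 2 of 9, 2 of 9 and 2 of 6 markers of those other cells were higher.

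Gene length moved with the compartment as well. The guidance genes had a median exon length of 6398 bases, against 3848 for protein-coding genes tested. The 37 lower genes had a median of 7956 bases and the 8 higher ones 4229 bases. Across the 69 genes Spearman's rank correlation between exon length and the +/+ log2 fold change was −0.33, and −0.38 across 15378 protein-coding genes. The part of length in the counts was not tested.

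The second comparison asked whether loss of hnRNP R changed guidance transcripts in cell bodies and dendrites. None of the 69 genes passed an adjusted p under 0.05 in edgeR (1 gene did among all tested, 0.00501%), and none an unadjusted p under 0.05, where 0.601% of all genes did. The median log2 fold change of Hnrnpr-/- against +/+ was −0.006, with a mean standard error of 0.46. That error came from a model shared by all 16 libraries. Variance beyond counting error was larger in axonal libraries (common dispersion 0.302) than in somatodendritic ones (0.0535). In this shared fit, changes of the size of the error were not detectable in single genes, which is no limit of the somatodendritic libraries alone. Efna1, an A ephrin named here after its values were seen, was the 1 gene whose genotypes did not overlap in cell bodies, where 1.58% of all genes did not. It was at 2.08, 0.585, 1.12 and 1.03 CPM in +/+ and at 2.55, 2.12, 2.47 and 3.82 CPM in Hnrnpr-/- libraries, a log2 fold change of 1.17 ± 0.77. Its p was 0.148 in edgeR before adjustment. Since it was picked for groups that do not overlap, an exact two-sided permutation test on log2(CPM + 1) had to give the smallest p that 4 against 4 libraries allow, 0.0286, and is no evidence for it. In axons its levels overlapped (2.62, 0.0270, 3.90 and 1.38 against 0.697, 2.08, 1.65 and 2.45 CPM).

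Receptors known from motor axons, and Plxna1, had genotype estimates in cell bodies below their standard errors from the shared fit. Epha4 was at 87.6 to 105 CPM in 3 of the +/+ libraries and 69.3 CPM in the fourth, and at 123, 96.4, 94.0 and 73.5 CPM in Hnrnpr-/- libraries (0.12 ± 0.27). Nrp1 stood at −0.11 ± 0.47, Robo1 at −0.23 ± 0.30 and Plxna1 at −0.21 ± 0.27. Their libraries overlapped throughout. Hnrnpr-/- library 1 was the highest of all 8 somatodendritic libraries for 33 of the 69 genes, among them Robo2 (307 CPM, the others of its group at 171 to 182 CPM) and Nrp2 (231 CPM, the others at 114 to 120 CPM). That library also had the highest sum of interneuron markers, 1556 CPM, and Hnrnpr-/- library 4 the lowest, 901 CPM.

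In axons 0 of the 69 genes passed an adjusted p under 0.05 between genotypes in edgeR (0.01% of all genes did), and 2 (2.90%) an unadjusted p under 0.05, where 3.88% of all genes did. Both lost this unadjusted call in many of the 27 alternative settings, Unc5c in 14 and Sema4c in 21. Unc5c had a lower estimate in Hnrnpr-/- axons, at 13.2, 26.7, 10.8 and 41.6 CPM in +/+ and at 17.5, 11.4, 10.3 and 14.5 CPM in Hnrnpr-/- axons (−0.78 ± 0.35). Sema4c, a semaphorin that binds Plxnb2 (chromosome 1, 36587720 to 36599780), had a higher estimate, at 23.4, 12.7, 17.6 and 16 CPM against 28.7, 24.5, 13.7 and 34.2 CPM (0.54 ± 0.25). Genotypes overlapped for both, as for all 69 genes in axons, where 0.606% of all genes did not overlap. The p of Unc5c was 0.0416 in edgeR before adjustment and 0.314 in the exact two-sided permutation test, which used the axonal libraries alone. For Sema4c these p-values were 0.0470 in edgeR and 0.200 in the exact permutation test, the latter being the lowest of the 69, which Robo1 shared.

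Robo1 had a lower estimate in Hnrnpr-/- axons, at 23.8, 27.3, 17.2 and 14.0 CPM, than the +/+ values above (−0.61 ± 0.30). Over 27 alternative settings this estimate ranged from −0.78 to −0.24, and Robo1 passed an unadjusted p under 0.05 in 4 of them. Dcc was at 7.29, 19.3, 6.36 and 4.61 CPM (−1.13 ± 0.70), an estimate that was −0.02 without +/+ axonal replicate 2 and −1.75 without Hnrnpr-/- axonal replicate 2. In edgeR the p before adjustment was 0.0611 for Robo1 and 0.129 for Dcc, and in the exact permutation test 0.200 and 0.686. In both, +/+ axonal library 2 was the highest value. The abundant axonal genes stood at 0.21 ± 0.28 for Plxnb2, 0.21 ± 0.39 for Ntn1, −0.14 ± 0.27 for Plxna1, −0.10 ± 0.46 for Nrp1 and −0.09 ± 0.30 for Efnb1, and none of them passed. The median over the 69 genes was −0.05, and 0.02 over all genes. With 1 library left out it ranged from −0.22 without Hnrnpr-/- axonal replicate 1 to 0.12 without +/+ axonal replicate 4.

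**Figure D4:**
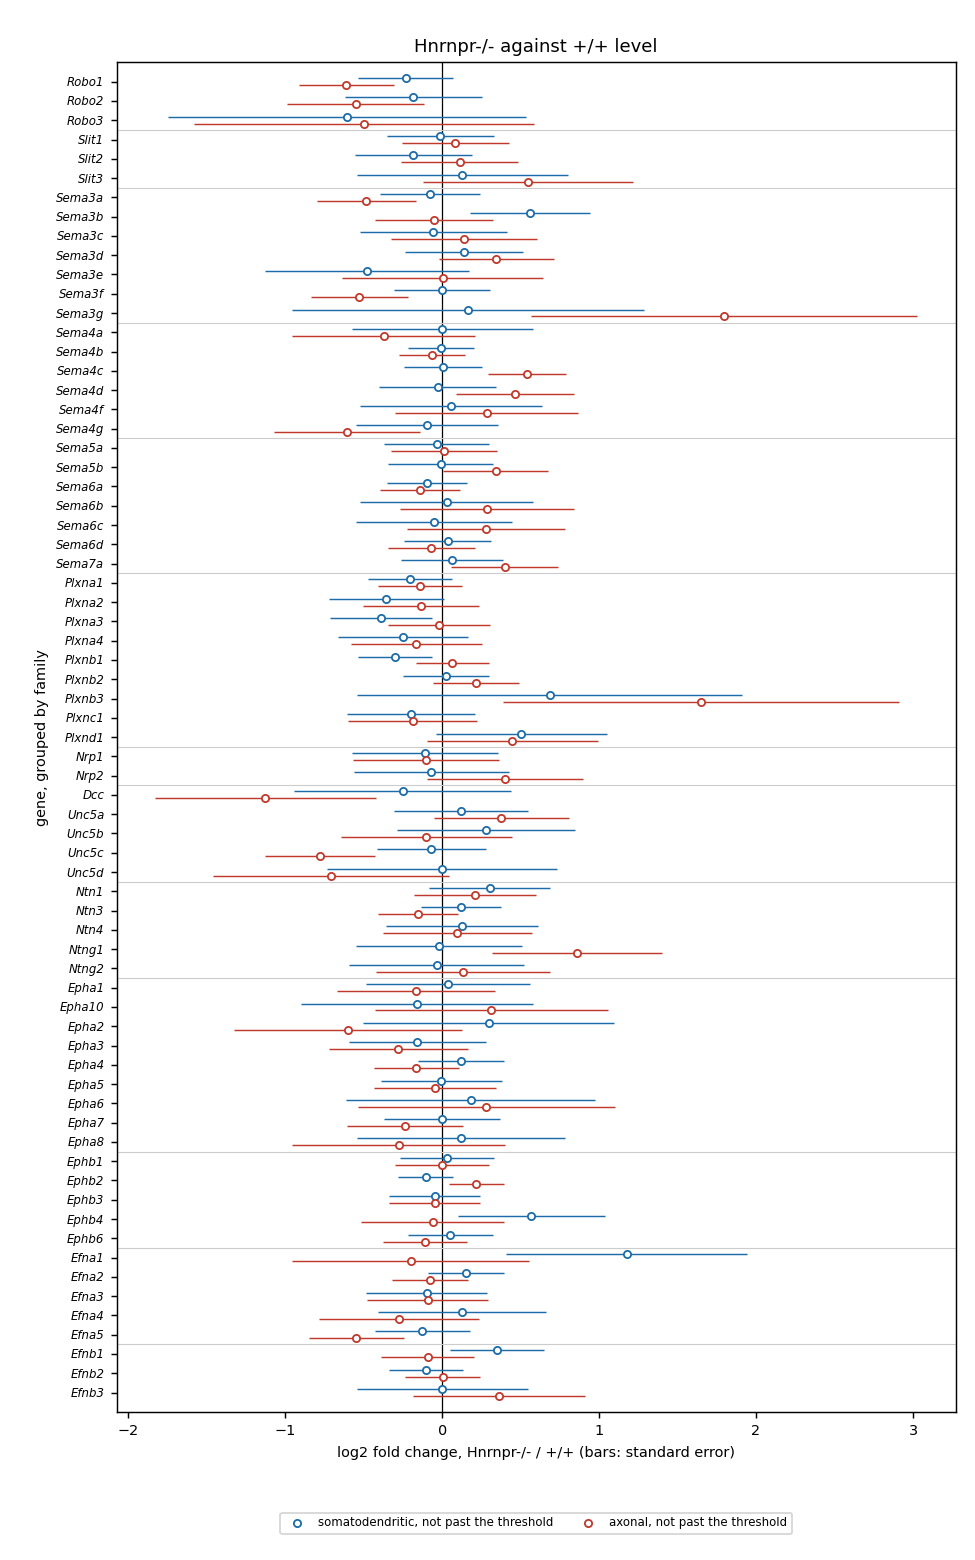
Log2 fold change of Hnrnpr-/- against +/+ level for the 69 genes tested, in the somatodendritic (blue) and the axonal (red) compartment, with standard errors as bars. No point is filled, since none has an adjusted p under 0.05, and most estimates lie within 1 log2 unit of 0.

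The spread between libraries was measured in each group. For guidance genes averaging at least 5 CPM, the median coefficient of variation between the 4 libraries was 16% in +/+ and 20.6% in Hnrnpr-/- cell bodies, but 44.0% and 46.4% in axons. Over all genes above that level it was 12.2%, 14.7%, 29.2% and 26.0%. The common dispersion of counts, a measure of variance beyond counting error, was 0.0535 in somatodendritic and 0.302 in axonal libraries. Guidance genes thus varied more between axonal libraries than the typical gene of the same libraries did, and this difference was not tested.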

How the data were processed

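RNA-seq was analysed in 16 libraries, grouped by genotype and compartment from their titles. The authors trimmed reads with Cutadapt, aligned them with STAR 2.7.2b to GRCm39 and counted exons with featureCounts 1.6.4 in the reverse-strand setting, although the SMART-Seq kit does not mark strand. Reads with several alignments or genes were divided among them, so the deposited values are expected counts without normalization. No pair of libraries was identical.

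Counts were rounded. In R 4.3.3, edgeR 4.0.16 filtered genes by expression per group, applied TMM factors and fitted 1 quasi-likelihood model with a mean per group to all 16 libraries. Contrasts were axonal against somatodendritic within each genotype, genotype within each compartment, and their interaction. All tests are two-sided, with adjustment by Benjamini-Hochberg over the 19964 genes that were tested and a threshold of 0.05. CPM use TMM-scaled totals. A standard error is the log2 fold change divided by the square root of F. Coordinates are those of the deposited table. The model was tested on simulated data.

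Genes were named where they were the 2 most abundant per kilobase of their family in +/+ libraries, the 5 largest increases or decreases, past an unadjusted p of 0.05 between genotypes, or known from motor axon guidance. Other guidance genes given with values were chosen after their values were seen. Genes and lists were chosen with earlier results of these data known. Lists comprised other guidance receptors and ligands, signalling effectors, and markers of motoneurons, interneurons, astrocytes or radial glia, fibroblasts or meninges and pericytes or smooth muscle. Ngfr and Shh stand in 2 lists each. Further lists gave, in +/+ axons, 1 higher and 2 lower of 5 endothelial, 2 and 0 of 8 oligodendroglial or Schwann cell, 0 and 0 of 6 microglial, and 1 and 0 of 4 floor plate markers, and 3 higher and 1 lower of 5 nuclear RNAs.

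Alternatives were RLE size factors, library totals, no filter, unrounded counts, DESeq2 1.42.0 with and without betaPrior, limma 3.58.1 (voom), only the groups compared, protein-coding genes, the replicate number as a block and each library left out. Same-numbered somatodendritic and axonal libraries deviated together in Hnrnpr-/- motoneurons (correlations 0.444, 0.169, 0.246 and 0.577), which pairs them. In +/+ motoneurons the correlations were 0.256, 0.262, 0.292 and 0.0833, and no pairing was taken. The main model left the replicate number out in both genotypes, and counts with it as a block are given below.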

Additional observations from a re-analysis of the deposited data

Results flagged for a closer look

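In 164 sets of 4 libraries, for the named genes in each group, 15 held 1 library far from the rest by Dixon's criterion, where chance flags about 1 in 20. Hnrnpr-/- somatodendritic replicate 1 was such a high value for Dcc (90.4 CPM), Epha5 (201 CPM), Nrp2 (231 CPM), Plxna4 (260 CPM) and Robo2 (307 CPM). In the same group, replicate 2 was low for Ntn1 (161 CPM) and replicate 3 low for Sema4f (53.0 CPM). Hnrnpr-/- axonal replicate 3 was low for Efna2 (6.57 CPM) and high for Efnb1 (117 CPM) and Ntn4 (50.1 CPM), and it held 9545 CPM of pericyte or smooth muscle markers. Replicate 4 of that group was high for Plxnd1 (15 CPM). In +/+ cell bodies, replicate 4 was low for Epha10 (65.9 CPM) and Sema7a (23.0 CPM), replicate 3 high for Epha2 (3.60 CPM) and replicate 2 high for Sema3e (12.5 CPM). The part of the cell types in these libraries was not tested.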

How the results depend on the processing

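Counts of guidance genes between compartments moved little. In +/+ axons they ranged from 8 to 10 higher and from 32 to 38 lower with 1 library left out, and over the other settings from 8 to 9 and from 33 to 39. In Hnrnpr-/- axons the ranges were 8 to 11 and 34 to 43, and 8 to 11 and 36 to 41. No setting gave a guidance gene with an adjusted p under 0.05 between genotypes.

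At an unadjusted p under 0.05, 0 genes between genotypes in cell bodies became 1 without the filter, with betaPrior and without both axonal libraries numbered 3, and 2 with voom and with only the groups compared. The 2 genes in axons became 3 without the filter, 3 without both axonal libraries numbered 3, where Robo1 was added, 1 with RLE factors, library totals, betaPrior and protein-coding genes, and 0 with voom and only the groups compared. The 0 genes in the interaction became 1 without the filter and without both axonal libraries numbered 3. With 1 library left out, these counts ranged from 0 to 2, from 0 to 6 and from 0 to 2. The 6 came without Hnrnpr-/- axonal replicate 1, and the 2 in the interaction without Hnrnpr-/- axonal replicate 3. Unc5c lost its unadjusted call in 14 and Sema4c in 21 of 27 settings.

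With the replicate number as a block, 1 gene, Robo1, passed the unadjusted p between genotypes in axons while Unc5c and Sema4c did not, and 8 genes were higher and 38 lower in +/+ axons, 9 and 40 in Hnrnpr-/- axons. The block brought Dcc past the threshold in +/+ axons (log2 fold change −2.32, adjusted p = 0.0111), although the numbers are not known to pair those libraries. It turned Sema3c in Hnrnpr-/- axons to −0.17. Every +/+ library correlated best with its own number, a hint from the data only. Beside Epha4, the block changed no other adjusted call of a named gene between the compartments of Hnrnpr-/- motoneurons.

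Near 0, signs turned. Sema3c in Hnrnpr-/- axons was at −0.20 with voom and −0.47 without both axonal libraries numbered 3, and ranged from −0.41 to 0.35 with 1 library left out. In +/+ axons Sema3c was at 0.0115 with library totals and ranged from −0.587 to 0.110. Ntn1 in +/+ axons was at 0.0480 with library totals and 0.00370 with protein-coding genes, and ranged from −0.289 to 0.157, the latter without axonal replicate 2. With 1 library left out, Ntn1 in Hnrnpr-/- axons ranged from −0.439 to 0.00680, Slit2 there from −0.403 to 0.210, Unc5c in +/+ axons from −0.628 to 0.0571 and Sema3e in +/+ axons from −0.0562 to 1.25. The cause of these shifts was not tested. With totals of at least 22024923 counts, single scarce genes still had few counts in some axonal libraries, such as 2 for Epha6 in +/+ replicate 2 and 8 for Epha8 in Hnrnpr-/- replicate 3.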
